A study of Lactuca sativa with 32 samples.

Results

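Leaves of red oak leaf lettuce (Lactuca sativa) that grew behind an organic photovoltaic filter of the blend PTB7-Th:IEICO-4F were compared between 2 experiments by RNA sequencing. The 8 plants were chosen by their labels, 4 titled HC for height controlled and 4 titled PC for PAR controlled, out of 32 plants in the series. PAR is photosynthetically active radiation. In HC the light intensity was not adjusted, and in PC it was. Light came from incandescent and ceramic metal halide lamps in both. The other 24 plants grew under clear glass, the control cover, or under the blends FTAZ:IT-M and FTAZ:PCBM, with 4 plants for each cover in each experiment. Boxes held 16 plants at the start and 8 up to the final harvest at 5 weeks, and the labels do not say at which harvest leaves were taken. The labels give no light intensities, and the intensity setting, the box and anything else that went with an experiment cannot be told apart in the HC to PC comparison. Nothing in the labels says whether the 4 plants of a group came from separate boxes, so p-values measure the spread between plants, which may be spread within 1 box.

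An organic photovoltaic filter is a semi-transparent film of donor and acceptor molecules that absorbs part of the sunlight spectrum for electricity and passes the rest. PTB7-Th is a donor polymer and IEICO-4F an acceptor that absorbs into the near infrared, so the blend takes up red and far-red light more than blue. Plants read the amount of light through photosynthesis and its colour through photoreceptors such as phytochromes and cryptochromes, and both inputs set the activity of a large share of leaf genes. Red leaf lettuces are also known to deepen their anthocyanin colour in brighter light.

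Deposited values were whole-number counts of reads per gene. The 8 plants had between 47333626 and 48678227 counts each and reads in 26117 to 26589 genes. A level of 3 counts, taken as the smallest that this depth can show, corresponded to 0.0616 to 0.0634 CPM, which are counts scaled to 1e6 per plant. This floor covers counting error only. The genes carry locus numbers without product names in the sources used here, so no function is given to them and the leaf label could not be checked against leaf marker genes. Levels below are CPM scaled by TMM (trimmed mean of M values), and all folds are HC relative to PC.

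Differences between HC and PC under PTB7-Th:IEICO-4F were spread widely over the leaf genes, and most of them were modest in size. In edgeR's quasi-likelihood test 8565 of 24483 tested genes, or 35%, passed an adjusted p of 0.05 (Benjamini-Hochberg) and are called below. Of these, 4600 (18.8%) were higher in HC and 3965 (16.2%) were lower. Called genes differed by a median of 0.54 log2 units in size. A log2 fold change of at least 1 in size was met by 1952 of the called genes (7.97% of those tested), 1178 of them higher and 774 lower. At 2 log2 units the counts were 267 higher and 205 lower. The CPM ranges of both groups did not overlap for 6474 of the called genes, or 75.6% of them. Over all tested genes the ranges did not overlap in 15.4% with HC higher and in 14.9% with HC lower. Calling itself favours genes whose groups are apart. Since tissue was measured in bulk, fewer cells of a type and less RNA per cell cannot be told apart here.

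The balance between rises and falls rested on the scaling. TMM factors were 0.911 to 1.02 in the HC plants and 1.05 to 1.06 in the PC plants. Scaling by total counts alone, an alternative added after the data were seen, moved the median log2 fold change of all tested genes from -0.00 to -0.12 and gave 3182 rises and 6271 falls. The share of calls that were rises was 53.7% with TMM and 33.7% with total counts. Directions below are relative to the TMM scale.

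Among called genes with a mean of at least 1 CPM over the 8 plants and ranges that did not overlap, the 10 largest rises spanned log2 fold changes of 3.97 to 5.36 and the 10 largest falls -5.80 to -3.35. All 20 are protein-coding in the later RefSeq annotation, as are 21742 of the 24483 tested genes. Of the 10 rises, 9 were also called as rises under clear glass, 8 under FTAZ:IT-M and 10 under FTAZ:PCBM. Of the 10 falls, 5 were called as falls under clear glass, 4 under FTAZ:IT-M and 2 under FTAZ:PCBM. In the same order of covers, 16.1, 14.6 and 17.3% of all tested genes were called as rises, and 16.1, 14 and 17.8% as falls. The count of falls under FTAZ:PCBM is near that share. In the test of the difference between PTB7-Th:IEICO-4F and clear glass, which called 2% of all tested genes, 0 of the 20 were called, near that share.

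The largest rise was at LOC111890979, a gene of 3 exons at NW_019672709.1:4047553-4048689 on the minus strand of the Lsat_Salinas_v7 assembly. Its level was 0.827, 3.89, 0.124 and 3.69 CPM in HC replicates 1 to 4. In PC it was 0.0389, 0.0791, 0.0790 and 0 CPM, from 2, 4, 4 and 0 reads. The PC values thus lie around the floor, and HC replicate 3, with 6 reads, is close to them. With a mean of 1.09 CPM over the 8 plants, the gene passed the minimum of 1 CPM through its HC plants. The fitted log2 fold change was 5.36 ± 0.94 (SE, adjusted p = 7.67e-05 by edgeR's quasi-likelihood test). Under clear glass the same gene was at 4.66 ± 2.07 CPM in HC and 0.442 ± 0.416 CPM in PC (SD, n = 4 each).

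The second was LOC111899681, a gene of 1 exon at NW_019673320.1:5696293-5697066 on the plus strand. It stood at 10.1, 9.55, 2.49 and 19.9 CPM in HC and at 0.292, 0.356, 0.494 and 0.117 CPM in PC. Every HC plant was above every PC plant, as the choice of these genes required, and HC replicate 3 was again the lowest of its group. The log2 fold change was 5.05 ± 0.75 (SE, adjusted p = 1.06e-05, edgeR's quasi-likelihood test). In all 4 covers HC plants exceeded PC plants at this gene, with log2 fold changes of 3.92 under clear glass, 2.87 under FTAZ:IT-M and 3.70 under FTAZ:PCBM.

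The largest fall was at LOC111921786, a gene of 3 exons at NW_019678186.1:311440-316276 on the minus strand. HC plants had 0.124, 0, 0 and 0.0456 CPM, from 6, 0, 0 and 2 reads. PC plants had 1.38, 1.15, 6.97 and 0.605 CPM, with replicate 3 far above the others. The groups did not overlap, as the choice required, and the log2 fold change was -5.80 ± 1.14 (SE, adjusted p = 0.000279, edgeR's quasi-likelihood test). Without PC replicate 3 it was -4.52, and the mean over the remaining plants was under 1 CPM. The gene was thus named only through that plant. Under clear glass the level was 0.0522 ± 0.0400 CPM in HC and 0.217 ± 0.124 CPM in PC (SD, n = 4 each), and the gene was not called there.

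The second fall was at LOC111919126, a gene of 2 exons at NW_019677711.1:2092170-2092782 on the minus strand. Its HC levels were 0.0414, 0.0442, 0.435 and 0.0911 CPM and its PC levels 0.564, 1.11, 13.7 and 1.05 CPM. PC replicate 3 again stood far above its group. The log2 fold change was -4.71 ± 1.15 (SE, adjusted p = 0.00224, edgeR's quasi-likelihood test). Without PC replicate 3 it was -2.54 and the adjusted p was 0.0609, so the call rests on that plant. The mean over the remaining plants was under 1 CPM, so the naming rests on it too.

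**Figure D1:**
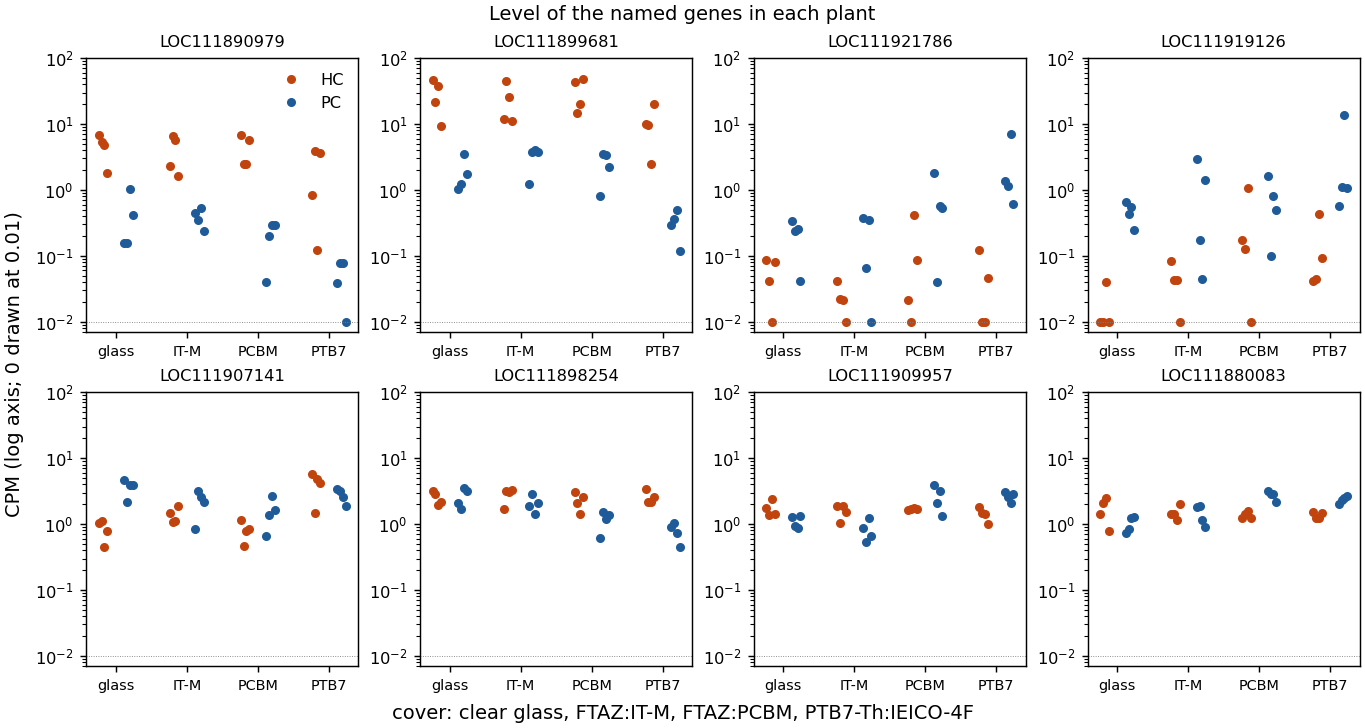
CPM in each plant on a log axis, with a value of 0 drawn at 0.01, for the 4 genes with the largest differences under PTB7-Th:IEICO-4F (top row) and the 4 named for the difference from clear glass (bottom row). Orange points are HC plants and blue points PC plants. In the top row the PTB7-Th:IEICO-4F groups do not overlap because the genes were chosen so. PC replicate 3 is at 6.97 CPM for LOC111921786 and at 13.7 CPM for LOC111919126.

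Among the 100 most abundant genes, far more were called higher in HC than lower. Of the 100 genes with the highest CPM per kilobase of gene length over the 8 plants, 56 rose and 11 fell, beside 18.8% and 16.2% of all tested genes. Their median log2 fold change was 0.31, against -0.00 over all tested genes. The counts were 49 and 17 with total counts in place of TMM, so the upward tilt was there on both scales. Under clear glass 30 of the same 100 genes rose and 19 fell, under FTAZ:IT-M 28 and 16, and under FTAZ:PCBM 46 and 13.

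The most abundant of these with separate ranges was a gene of 3 exons at NW_019677377.1:3134075-3135920. It was at 17194, 18399, 14847 and 21447 CPM in HC and at 11908, 12565, 11280 and 12139 CPM in PC. Means were 17972 ± 2746 CPM in HC and 11973 ± 536 CPM in PC (SD, n = 4 each), with a log2 fold change of 0.59 ± 0.16 (SE, adjusted p = 0.00567, edgeR's quasi-likelihood test). Under clear glass its log2 fold change was 0.06, and the difference between the covers was not called (adjusted p = 0.248, edgeR's quasi-likelihood test).

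A gene of 6 exons at NW_019675779.1:162054-164699 rose from 7191 ± 221 CPM in PC to 9637 ± 907 CPM in HC (SD, n = 4 each). Among the abundant genes that fell, the first was one of 3 exons at NW_019683249.1:9026-9911. It was at 1603 ± 371 CPM in HC and 2413 ± 403 CPM in PC (SD, n = 4 each), with a log2 fold change of -0.59. Under clear glass the log2 fold change was -1.02, and the difference between the covers was not called (adjusted p = 0.310, edgeR's quasi-likelihood test). The 10 genes with most reads of a plant together took 6.67, 6.62, 6.06 and 6.93% of its reads in HC and 5.90, 5.74, 5.46 and 5.65% in PC. These shares did not overlap, and the exact permutation test over 4 against 4 plants gave p = 0.0286, the smallest it can give. Adjusted over the 9 measures per plant that were tested, p was 0.0857.

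A smaller share of long non-coding RNA (lncRNA) genes than of protein-coding genes rose, while the shares that fell were close. Such genes give transcripts that are spliced and polyadenylated like messenger RNA but encode no known protein. By the biotypes of the later RefSeq annotation, 139 of 1698 tested lncRNA genes rose (8.2%) and 277 fell (16.3%). Among 21742 protein-coding genes, 4373 rose (20.1%) and 3593 fell (16.5%). Call shares also varied with level, from 9.5% rises and 7.0% falls below a mean of 1 CPM to 27.1% and 18.7% at 100 CPM or more. The 2 biotypes were not matched for level. The median log2 fold change was -0.11 for lncRNA genes and 0.00 for protein-coding genes, and with total counts it was -0.22 and -0.11. In the other covers lncRNA genes were split 145 to 185 under clear glass, 181 to 129 under FTAZ:IT-M and 175 to 166 under FTAZ:PCBM, rises first.

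The reads assigned to lncRNA genes made up 1.53, 1.38, 1.57 and 1.11% of the total in HC replicates 1 to 4 and 1.75, 1.65, 1.56 and 1.63% in PC. HC replicate 4 was the lowest, while HC replicate 3 was above PC replicate 3, so the groups overlapped. The exact permutation test gave p = 0.0571, or 0.103 adjusted over the 9 measures. Without HC replicate 4 the counts were 125 rises and 165 falls and the median was -0.05.

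Genes of 1 exon rose more often than they fell on the TMM scale, with 743 up (22.9%) and 447 down (13.8%) of 3243, beside 18.8% and 16.2% of all tested genes. With total counts the order turned, to 582 and 660. Under clear glass the same genes were split 512 to 552, under FTAZ:IT-M 376 to 589 and under FTAZ:PCBM 480 to 629. Genes of more than 10 exons were near the shares of all tested genes under PTB7-Th:IEICO-4F, with 653 rises (17.9%) and 590 falls (16.2%) of 3643. Their counts were 746 and 398 under clear glass, 621 and 384 under FTAZ:IT-M and 443 and 925 under FTAZ:PCBM. These classes were chosen with the data in view and are given as counts without a test.

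**Figure D2:**
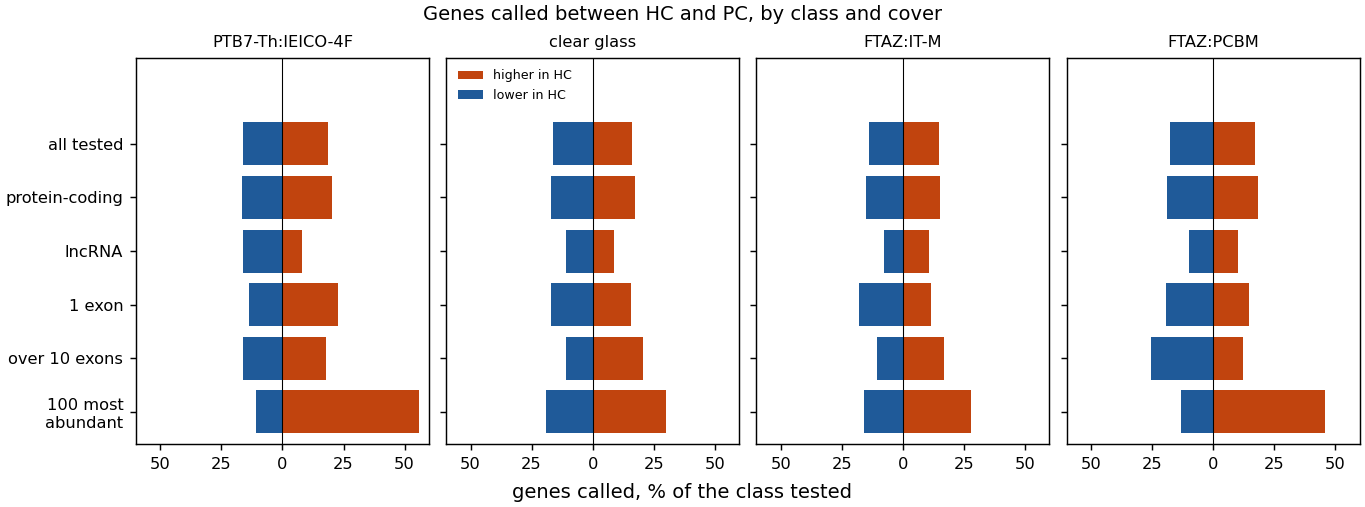
Share of tested genes called between HC and PC in 6 gene classes, with 1 panel per cover, where orange bars to the right are genes higher in HC and blue bars to the left genes lower in HC, both in percent of the class. Under PTB7-Th:IEICO-4F the 100 most abundant genes reach 56% to the right beside 18.8% of all tested genes, and lncRNA genes reach 8.2% to the right and 16.3% to the left, the latter beside 16.2% of all tested genes.

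Of the small RNA genes, 122 annotated as snoRNA, guides of ribosomal RNA modification, passed the filter on low counts, and 6 rose (4.9%) and 1 fell (0.82%), both below the shares of all tested genes. Under FTAZ:IT-M 32 of them rose and 1 fell. Poly-A selection captures such RNA poorly. None of the 13 tested genes for transfer RNA or plastid ribosomal and transfer RNA was called between HC and PC under PTB7-Th:IEICO-4F.

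Clear glass offers the comparison of the same 2 experiments without a light-absorbing film, in 8 other plants. Most of what separated HC from PC under PTB7-Th:IEICO-4F separated them under glass as well. There 7890 genes (32.2%) were called, 16.1% of the tested genes in each direction, and 1635 (6.68%) with at least 1 log2 unit. Of the genes called under both covers, 4739 went the same way and 68 opposite ways. The latter count was 39 without HC Control replicate 3 and 43 without PC replicate 4. The shared genes are 55.3% of the PTB7-Th:IEICO-4F calls and 60.1% of the glass calls. Across the 24483 genes, which are not independent replicates, the log2 fold changes of both covers correlated with Pearson's r of 0.72 and Spearman's rho of 0.67. The same measures were 0.64 and 0.56 with FTAZ:PCBM and 0.48 and 0.40 with FTAZ:IT-M. These comparisons share no plant, but they share whatever set the experiments apart.

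FTAZ:PCBM gave 8583 calls (35.1%, of which 17.3% higher and 17.8% lower), 1349 (5.51%) with at least 1 log2 unit. Of its calls 3931 went the same way as under PTB7-Th:IEICO-4F and 238 the opposite way. FTAZ:IT-M gave 7023 (28.7%, of which 14.6% higher and 14% lower), 932 (3.81%) with at least 1 log2 unit. Of these calls 2623 went the same way and 490 the opposite way. A core of 1636 genes was called in the same direction in all 4 covers, 877 of them higher and 759 lower in HC. Another 2003 of the 24483 were called under PTB7-Th:IEICO-4F and under no other cover, 971 higher and 1032 lower, although a missed call elsewhere does not show a difference between covers.

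A score per plant was taken over the genes called between HC and PC under clear glass, a contrast of other plants, although all 32 plants entered the filter and the estimate of spread. It is the mean log2(CPM + 1) of the genes higher in HC there minus that of the genes lower in HC. HC plants under PTB7-Th:IEICO-4F scored -0.33, 0.04, -0.49 and -0.04, and PC plants -1.16, -1.02, -0.95 and -1.14. The groups were apart, by 0.86 on the log2 scale, with an exact permutation p of 0.0286 and 0.0857 after adjustment over the 9 measures. HC replicates 1 and 3 lay nearer to the PC plants than replicates 2 and 4 did.

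Means of the score were 0.21 in HC and -0.84 in PC under clear glass, where the genes were chosen. They were 0.07 and -0.57 under FTAZ:IT-M and 0.15 and -0.53 under FTAZ:PCBM. Both PTB7-Th:IEICO-4F groups had the lowest mean score of their experiment.

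**Figure D3:**
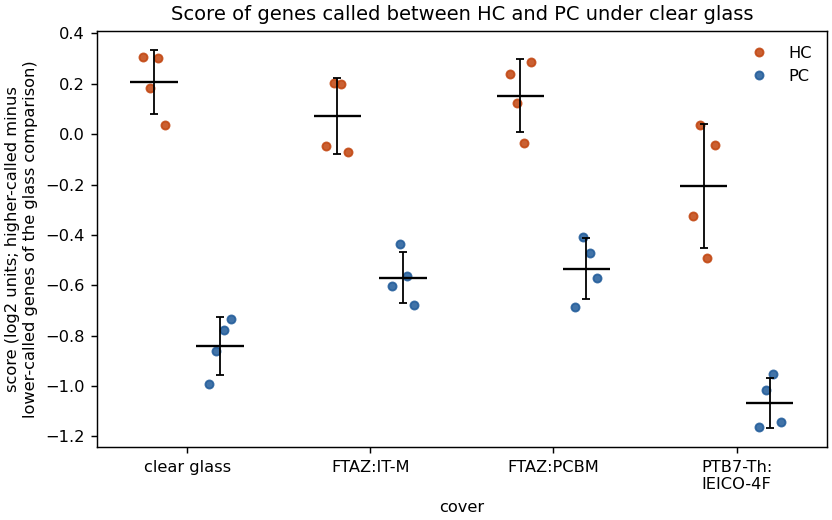
Score of the genes called between HC and PC under clear glass (vertical axis, log2 units) in each of the 32 plants, by cover, with HC in orange and PC in blue, and with black lines for the mean and SD of 4 plants. HC plants under PTB7-Th:IEICO-4F spread from -0.49 to 0.04, all above the PC plants of the same cover, which end at -0.95.

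Whether the HC to PC gap itself differed between covers was tested as an interaction. Against clear glass 489 genes (2%) were called, 324 (1.32%) with a higher and 165 (0.674%) with a lower value under PTB7-Th:IEICO-4F, and 90 (0.368%) differed by at least 1 log2 unit. Against FTAZ:PCBM the test called 2813 genes (11.5%), 1806 (7.38%) higher and 1007 (4.11%) lower, with 226 (0.923%) at 1 log2 unit or more. Against FTAZ:IT-M it called 4725 genes (19.3%), 2739 (11.2%) higher and 1986 (8.11%) lower, with 916 (3.74%) at 1 log2 unit or more. With total counts in place of TMM the share of higher values fell from 66.3% to 31.6% against glass, from 64.2% to 38.3% against FTAZ:PCBM and from 58.0% to 41.1% against FTAZ:IT-M. The count against glass moved with the tool and with single plants: DESeq2 called 931, and leaving out 1 of the 16 plants gave between 197 and 534.

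The 489 genes that differed from clear glass were mostly genes called in 1 cover alone. Of the 324 with a higher value, 141 rose under PTB7-Th:IEICO-4F and were not called under glass, and 129 fell under glass and were not called under PTB7-Th:IEICO-4F. Another 34 rose under PTB7-Th:IEICO-4F and fell under glass. Of the 165 with a lower value, 65 fell under PTB7-Th:IEICO-4F and were not called under glass, 61 rose under glass and were not called under PTB7-Th:IEICO-4F, and 32 went opposite ways. In all 98 of the 24483 tested genes were called under PTB7-Th:IEICO-4F and also differed, in the same sense, from each of the other 3 covers. Of the 98, 70 were higher and 28 lower. These tests share the 8 plants of PTB7-Th:IEICO-4F, so their agreement is partly built in.

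**Figure D4:**
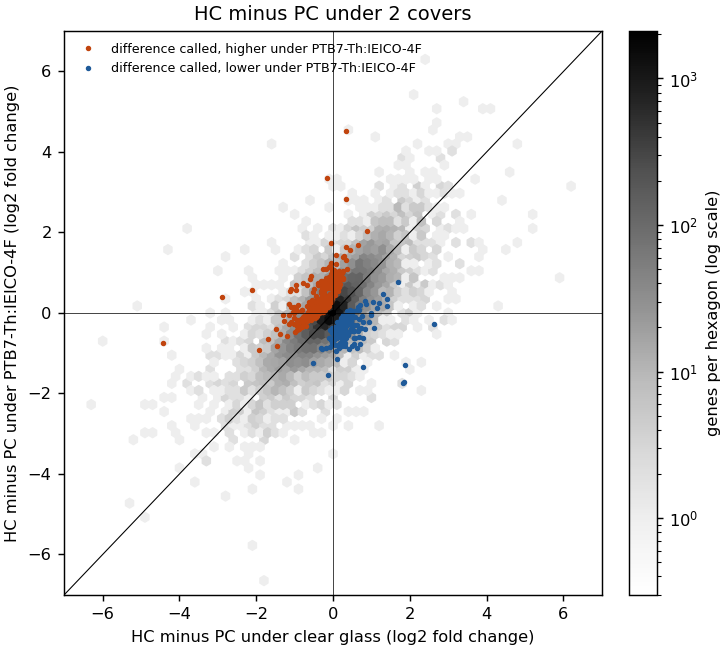
Log2 fold change of HC relative to PC under clear glass (horizontal axis) and under PTB7-Th:IEICO-4F (vertical axis) for 24483 genes, as shaded hexagons on a log scale of genes per hexagon, with the diagonal in black. Orange dots mark the 324 genes whose difference between the covers was called with a higher value under PTB7-Th:IEICO-4F, and blue dots the 165 with a lower value.

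The largest such contrast among genes with a mean of at least 1 CPM was at LOC111907141, a gene of 9 exons at NW_019674827.1:555879-565695 on the minus strand. Under PTB7-Th:IEICO-4F it was at 5.79, 1.46, 4.77 and 4.26 CPM in HC and 3.41, 3.18, 2.57 and 1.87 CPM in PC. Under clear glass it was at 1.03, 1.11, 0.446 and 0.772 CPM in HC and 4.68, 2.18, 3.86 and 3.89 CPM in PC. The groups overlapped under PTB7-Th:IEICO-4F, while under glass every HC plant was lower than every PC plant. The log2 fold changes were 0.56 ± 0.38 and -2.12 ± 0.42, and their difference was 2.68 ± 0.56 (SE, adjusted p = 0.0109, edgeR's quasi-likelihood test). For this gene the differences from FTAZ:IT-M and FTAZ:PCBM were not called (adjusted p = 0.125 and 0.0800, edgeR's quasi-likelihood test).

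The second was LOC111898254, a gene of 2 exons at NW_019672955.1:1505940-1508700 on the minus strand, at 2.60 ± 0.60 CPM in HC and 0.781 ± 0.253 CPM in PC under PTB7-Th:IEICO-4F (SD, n = 4 each). Under clear glass it was at 2.54 ± 0.59 and 2.62 ± 0.88 CPM. The PC plants under the filter were the low ones. The difference of 1.78 ± 0.42 between the covers had an adjusted p of 0.0253 by edgeR's quasi-likelihood test. Leaving out any of 6 plants, 1 at a time, it missed the threshold, with adjusted p-values up to 0.0746. The gene was also called as a rise under FTAZ:PCBM, from 1.17 ± 0.39 CPM in PC to 2.28 ± 0.70 CPM in HC (SD, n = 4 each). Its difference from FTAZ:PCBM was not called (adjusted p = 0.253) and that from FTAZ:IT-M was (adjusted p = 0.0331, both by edgeR's quasi-likelihood test).

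Among the contrasts with a lower value, LOC111909957 at NW_019675681.1:345406-356213 was at 1.43 ± 0.34 CPM in HC and 2.62 ± 0.44 CPM in PC under PTB7-Th:IEICO-4F, and at 1.73 ± 0.46 and 1.11 ± 0.23 CPM under clear glass (SD, n = 4 each). Its contrast was -1.51 ± 0.39 (SE, adjusted p = 0.0362, edgeR's quasi-likelihood test). LOC111880083 at NW_019679216.1:438615-446114 was at 1.37 ± 0.17 CPM in HC and 2.36 ± 0.27 CPM in PC under the filter, and at 1.69 ± 0.74 and 1.03 ± 0.29 CPM under glass (SD, n = 4 each). Its contrast was -1.49 ± 0.37 (SE, adjusted p = 0.0319, edgeR's quasi-likelihood test). Both lost the call on leaving out single plants, in 9 and 8 of the 16 fits, with adjusted p-values up to 0.110 and 0.105. LOC111880083 also lost it with only these 16 plants in the model (adjusted p = 0.0745, edgeR's quasi-likelihood test). The gene was also called as a fall under FTAZ:PCBM. It was at 1.37 ± 0.18 CPM in HC and 2.75 ± 0.43 CPM in PC there (SD, n = 4 each). LOC111909957 was not called there (log2 fold change of -0.63). The differences from FTAZ:PCBM were not called (adjusted p = 0.749 and 0.736 in this order, edgeR's quasi-likelihood test). The one from FTAZ:IT-M was called for LOC111909957 (adjusted p = 0.00191) but not LOC111880083 (adjusted p = 0.110, both by edgeR's quasi-likelihood test).

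Some of the called genes lay next to each other on a scaffold. Of the 22424 pairs of tested genes next to each other on a scaffold, 226 held 2 genes called with an absolute log2 fold change of at least 1, and in 179 (79.2%) both went the same way. Over all calls the share was 1675 of 2901 pairs (57.7%). No share for unrelated genes was computed. At 1 log2 unit or more rises outnumbered falls, 1178 to 774, which by itself raises agreement. Runs of 3 or more such neighbours in 1 direction numbered 13 among the rises, with 53 genes, and 10 among the falls, with 31 genes. Leaving out single plants, between 10 and 13 of the rising runs and between 6 and 9 of the falling runs kept the call of every gene. The fewest falling runs did so without HC replicate 2, and the 3 genes at NW_019675808.1:433121-453182 all lost the call without HC replicate 1, without HC replicate 2 or without PC replicate 3. Runs were found from the same comparison and are given as a description. Reads that map to several places went uncounted with the options shown, so near-identical neighbours would be undercounted, and strand was not used.

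A run of 7 genes of 1 exon at NW_019672086.1:182061-347029 rose by 1.05 to 1.83 log2 units. Their summed level was 62.8, 138, 84.0 and 116 CPM in HC and 38.1, 36.8, 53.8 and 26.7 CPM in PC. All 4 HC plants were higher, replicates 2 and 4 most of all. All 7 genes were also called higher under clear glass and 6 under FTAZ:PCBM, but 0 under FTAZ:IT-M. In 6 of the 7 the difference from FTAZ:IT-M was itself called, and in 0 the difference from clear glass. Under FTAZ:IT-M the sums were 97.9, 94.0, 139 and 67.0 CPM in HC and 92.7, 88.4, 75.0 and 81.5 CPM in PC, so the groups overlapped there.

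A second run of 7 genes, at NW_019674103.1:5771717-5844126, lay at a lower level. It summed to 17.3 ± 6.3 CPM in HC and 5.48 ± 1.72 CPM in PC (SD, n = 4 each). Of its genes 6 were called higher under clear glass, 3 under FTAZ:PCBM and 0 under FTAZ:IT-M. From FTAZ:IT-M 6 differed, and from clear glass 0. Next to it on the scaffold, 5 genes of 1 exon at NW_019674103.1:5590345-5757649 rose by 1.26 to 2.43 log2 units. Of these, 3 differed from FTAZ:IT-M, 3 from FTAZ:PCBM and 0 from clear glass, where 4 were called higher too.

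The run with the highest summed level in HC held 4 genes of 1 exon and 938 to 940 bases at NW_019681068.1:520659-576813. Together they reached 4324, 8436, 3856 and 7384 CPM in HC and 1104, 1114, 1755 and 1032 CPM in PC. Every HC plant had more than every PC plant, again with replicates 2 and 4 on top. The log2 fold changes were 1.87 to 2.50. Under clear glass the sums were 7805, 7085, 7087 and 5884 CPM in HC and 1714, 2109, 3737 and 3168 CPM in PC, also without overlap. The PC plants under PTB7-Th:IEICO-4F were the lowest of the series along with replicate 1 of the PC control. A similar group of 4 genes of 1 exon at NW_019676762.1:4983439-5080741 was at 2818 ± 636 CPM in HC and 1158 ± 192 CPM in PC (SD, n = 4 each).

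Among the runs that fell, 4 genes of 2 exons at NW_019681084.1:290453-451966 went from 190, 194, 205 and 230 CPM in PC to 67.1, 53.0, 120 and 69.2 CPM in HC. The groups were well apart, with HC replicate 3 nearest to the PC plants. All 4 genes were also called lower under clear glass, 2 under FTAZ:IT-M and 3 under FTAZ:PCBM. The steepest run, 3 genes of 3 exons at NW_019679060.1:3699309-3862179, fell by between -2.04 and -3.48 on the log2 scale. It stood at 10.4, 7.98, 45.3 and 20.6 CPM in HC and at 126, 139, 279 and 156 CPM in PC.

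A run of 3 genes of 4 exons at NW_019677106.1:4283513-4330239 differed from all 3 other covers. Under PTB7-Th:IEICO-4F they summed to 150, 195, 190 and 211 CPM in HC and 116, 105, 136 and 92.6 CPM in PC. Under clear glass they summed to 140, 132, 94.1 and 117 CPM in HC and 239, 178, 212 and 192 CPM in PC. HC was thus the higher group under PTB7-Th:IEICO-4F and the lower one under glass, with no overlap in either cover. The FTAZ:IT-M plants had 127, 167, 127 and 156 CPM in HC and 196, 304, 268 and 209 CPM in PC.

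Each of the 3 genes was called higher in HC under PTB7-Th:IEICO-4F, with log2 fold changes of 0.55 to 0.83. Their differences from clear glass were 1.42 to 1.66 log2 units, and the differences from FTAZ:IT-M and FTAZ:PCBM were called for all 3 as well. All of these tests share the 8 plants of PTB7-Th:IEICO-4F, so they are not independent. Without HC replicate 4, or without PC replicate 4, 2 of the 3 rises under PTB7-Th:IEICO-4F were called.

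A second run that differed from glass held 3 genes of 3 exons at NW_019683044.1:216013-494583. Its sums were 116, 94.7, 100 and 93.6 CPM in HC and 62.6, 64.2, 64.4 and 63.6 CPM in PC. The PC plants were close together and all below the HC plants. Under clear glass the sums were 81.0, 87.8, 70.1 and 89.3 CPM in HC and 83.5, 92.0, 93.7 and 98.5 CPM in PC. The 3 genes also rose under FTAZ:PCBM, where no difference from PTB7-Th:IEICO-4F was called.

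**Figure D5:**
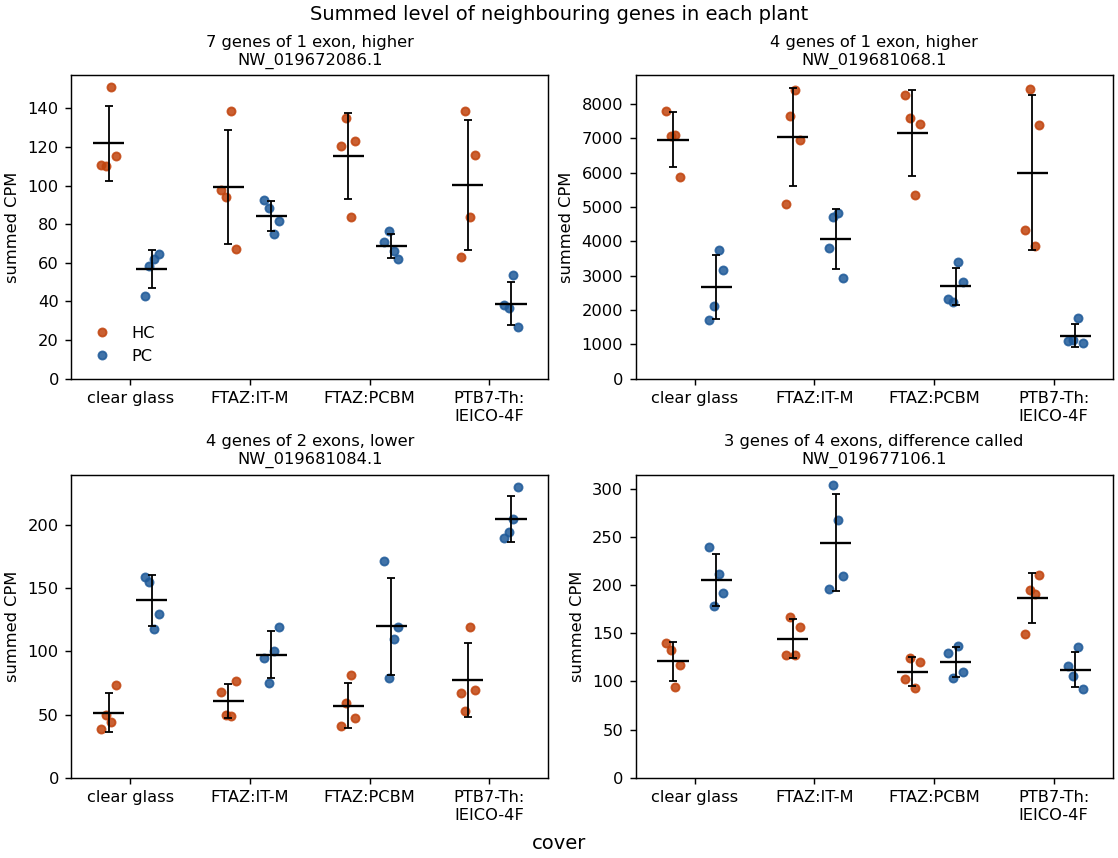
Summed CPM of 4 runs of neighbouring genes in each of the 32 plants, by cover, with HC in orange, PC in blue and black lines for the mean and SD of 4 plants. The upper panels are runs that rose and the lower left one a run that fell under PTB7-Th:IEICO-4F, and in the lower right panel HC plants are above PC plants under PTB7-Th:IEICO-4F, at 150 to 211 against 92.6 to 136, and below them under clear glass.

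HC plants under PTB7-Th:IEICO-4F had the highest common dispersion of the 8 groups. It was 0.0410 by edgeR, against 0.0200 in the PC plants of the same cover and 0.0181 to 0.0359 in the other 6 groups. Pearson's r of log2(CPM + 1) between plants was 0.986 to 0.992 within the HC group and 0.992 to 0.996 within the PC group, and 0.961 to 0.987 between them. In 823 genes the SD between HC plants was over 0.5 log2 units, and in PC in 347. The most similar group was PC FTAZ:IT-M, with 667 such genes, a dispersion of 0.0359 and a lowest r of 0.986. A model of the 8 PTB7-Th:IEICO-4F plants alone, which does not borrow spread from the other covers, called 6819 genes.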

How the data were processed

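Polyadenylated leaf RNA was sequenced from 32 plants, with all libraries pooled over 3 lanes, per the labels' protocols. The deposited values are raw counts per gene from featureCounts 2.0.1 over exons of the Lsat_Salinas_v7 RefSeq annotation, per the file headers, which show no option for strand, multi-mapping reads or read pairs. FastQC, HISAT2, featureCounts and DESeq2 are named in the submitters' processing notes, and aligner settings are not given in the sources used here.

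The HC and PC groups came from the labels. Of 43717 genes, 24483 passed edgeR's filterByExpr on groups (minimum count 10, total of 15). After TMM scaling they were tested in edgeR 4.0.16 (limma 3.58.1, R 4.3.3) by the quasi-likelihood F-test in 1 model of all 32 plants with a mean per group. The p-values were adjusted by Benjamini-Hochberg over all tested genes, and genes were called under 0.05. The standard error of a log2 fold change is its size over the square root of F. CPM is the count per 1e6 total counts, divided by the TMM factor. Values per plant were compared by two-sided exact permutation tests of 4 against 4. Other computation used Python 3.11.15 with scipy 1.17.1 and pandas 2.3.3. The test was tested on simulated data.

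Named genes are, at most 2 each way, the largest log2 fold changes among called genes with a mean of at least 1 CPM and, in the main comparison, groups that do not overlap. The comparison, the classes and the lists were chosen with earlier results of these data known. A RefSeq table of the Lsat_Salinas_v11 assembly gave biotypes for 23634 of the tested genes, and its coordinates were not used. Lists by product, protein signature or promoter were not applied, since no such table was used here. The replicate numbers name different plants and entered only as an alternative. The other alternatives were DESeq2 1.42.0 and its size factors, total counts, other filters, a gene length offset, only the groups compared, a fold minimum, and leaving out each plant. Total counts were added after the data were seen.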

Additional observations from a re-analysis of the deposited data

Results flagged for a closer look

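In the HC and PC groups of PTB7-Th:IEICO-4F, 84 combinations of group and measure were checked for a plant far from the others by Dixon's criterion, and 5 stood out, where chance gives about 4.2. Of these, 4 are PC replicate 3. Its level of LOC111921786 was 6.97 CPM and of LOC111919126 13.7 CPM. Its summed level was 1755 CPM for the 4 genes at NW_019681068.1:520659-576813 and 163 CPM for the 3 genes at NW_019673045.1:1216920-1222654. LOC111921786 and LOC111919126 reached the minimum mean of 1 CPM only with PC replicate 3 included. Their choice thus favoured a high value in that plant, and the count given by chance does not allow for this. HC replicate 3 was the plant apart for LOC111919126, at 0.435 CPM.

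The difference between HC and PC was larger or smaller under PTB7-Th:IEICO-4F than under another cover, by the interaction test, in 489 genes against clear glass, 4725 against FTAZ:IT-M and 2813 against FTAZ:PCBM. Among the named genes the contrast with clear glass was 2.68 log2 units at LOC111907141, 1.78 at LOC111898254, -1.51 at LOC111909957 and -1.49 at LOC111880083.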

How the results depend on the processing

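The count of 8565 genes between HC and PC under PTB7-Th:IEICO-4F stayed within 1.5 times of that value in the alternatives run, from 6519 with a mean CPM of at least 5 to 9453 with total counts, except for the fold minimum of 1 log2 unit, which left 1952. Leaving out single plants gave 6937 to 8918. With total counts 7147 of the called genes were shared. Against clear glass the count of 489 became 931 with DESeq2, 282 with the 16 plants of these groups alone in the model and 90 with the fold minimum. Leaving out single plants gave 197 to 534, and 7 of the 16 plants moved it by over 1.5 times: without PC replicate 4 it was 197, without HC Control replicate 3 213, without PC Control replicate 3 247, without PC replicate 2 268, without HC Control replicate 4 311, without HC replicate 4 317 and without PC Control replicate 2 318. Against FTAZ:IT-M the fold minimum left 916 of 4725 genes, and leaving out single plants gave 3632 to 5838. Against FTAZ:PCBM it left 226 of 2813, the length offset gave 1472, and single plants 1420 to 3420. The causes were not tested. The slope of log2 CPM on gene length differed by 0.00854 between HC and PC (exact permutation p = 0.8, n = 4 each), and reversed to -0.0123 without HC replicate 4 and to -0.000692 without PC replicate 1, within a range of -0.0123 to 0.0253. With the replicate number as a block the counts were 8487, 441 against glass, 4723 against FTAZ:IT-M and 2735 against FTAZ:PCBM. Same-numbered plants did not deviate together (mean r of -0.0194) and 0 of 8 correlated best with their own number. Depth limits genes near the floor of 3 counts.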
